A study of Mus musculus with 24 samples.

Results

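The genes described here encode the subunits of the AMPA and kainate receptors, the ion channels that carry most of the fast glutamate signal between excitatory neurons of the hippocampus. They are the 9 genes Gria1 to Gria4 and Grik1 to Grik5, found by matching the Ensembl identifiers of the count table to these symbols, out of 55471 genes in the table. All 9 matched 1 row each and all 9 passed the filter on low counts in every comparison. Hippocampal RNA came from 12 female C57BL/6 mice of 3 to 6 months, with 3 mice in each of 4 groups. The groups were control littermates and CBP-ifKOs (Crebbp_flox;Camk2a_creERT2), each kept in standard cages (SC) or in an enriched environment (EE). CBP, the product of Crebbp, is a lysine acetyltransferase and coactivator of transcription. The control littermates lacked the CaMKIIα-creERT2 transgene, and mice of both genotypes were given tamoxifen in 5 doses, so the drug is common to all groups. The Camk2a promoter drives the recombinase in excitatory neurons of the forebrain, so interneurons and glia of the CBP-ifKOs kept an intact Crebbp gene. As whole hippocampus was sequenced, fewer cells of a type and less mRNA per cell cannot be told apart in any of the values. Each mouse is 1 replicate, with its 2 sequencing runs already merged.

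AMPA and kainate receptors are assemblies of 4 subunits around a shared pore. In the AMPA family, the subunit made from Gria2 keeps the channel nearly closed to calcium, and the product of Gria1 is the one best known for delivery to synapses during long-term potentiation. In the kainate family, the products of Grik1, Grik2 and Grik3 form channels by themselves, whereas those of Grik4 and Grik5 bind glutamate with high affinity and need a partner from the first set. Kainate receptors are best known in the hippocampus at the mossy fiber synapse between dentate granule cells and CA3 pyramidal cells.

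The control of calcium entry by Gria2 rests on 1 codon, at the glutamine/arginine (Q/R) site of the pore loop, where adenosine deamination of the mRNA turns glutamine into arginine. Grik1 and Grik2 transcripts are known to be edited at the same site. The 30 coding bases around this codon are shown for all 9 genes because they show what the gene counts can and cannot tell. They were taken from GENCODE transcripts of GRCm38, run 5′ to 3′, and have the codon in capitals.
Gria1: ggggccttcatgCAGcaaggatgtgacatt
Gria2: ggtgcctttatgCAGcaaggatgcgatatt
Gria3: ggtgcttttatgCAGcaaggatgtgatatt
Gria4: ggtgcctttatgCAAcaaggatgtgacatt
Grik1: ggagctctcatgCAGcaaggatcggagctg
Grik2: ggagctctcatgCAGcaaggttctgagctc
Grik3: ggctccctgatgCAGcaaggatctgaactg
Grik4: ggaggcttcatgCAGcaaggctccactatt
Grik5: ggtggcttcatgCAGcagggctcggagatc
All 9 genes encode glutamine here in the genome, at residue 607 of the Gria2 precursor and between residues 600 and 636 in the other genes. Gria4 is the only one of these 9 transcripts with CAA in place of CAG. Gria3 shared 28 of the 30 bases with Gria2, Gria4 shared 27, Gria1 shared 26 and the kainate genes shared between 20 and 23. A count per gene pools edited with unedited transcripts, and also pools the flip and flop splice forms, so it gives the amount of mRNA and not the calcium permeability of the channels.

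The 9 genes share little sequence at the length of a read. In translated coding sequences, the AMPA subunits were between 68.2% and 73.1% identical to each other in 6 pairs and the kainate subunits between 42.9% and 79.5% in 10 pairs. Across the families identity lay between 37.0% and 43.4% in 20 pairs. Of all 50-base windows, the read length, the share found exactly in another of the 9 genes was at most 0.159%, in Gria4, and was 0 in Gria1, Grik1, Grik2 and Grik5. No exon of the 9 genes overlapped an annotated exon on the opposite strand. On the same strand, exons of another annotated gene overlapped 111 bases of Gria2, 85 of Gria3, 19 of Gria4 and 59 of Grik4.

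The genes lie on separate chromosomes except for Gria4 and Grik4, both on chromosome 9. In GRCm38 coordinates Gria1 (ENSMUSG00000020524) spans chr11:57011387-57330244 on the plus strand and Gria2 (ENSMUSG00000033981) spans chr3:80681450-80802835 on the minus strand. Gria3 (ENSMUSG00000001986) spans chrX:41400854-41678601 on the plus strand and Gria4 (ENSMUSG00000025892) spans chr9:4417896-4796234 on the minus strand. Grik1 (ENSMUSG00000022935) lies at chr16:87895900-88290265, Grik2 (ENSMUSG00000056073) at chr10:49094833-49788766 and Grik5 (ENSMUSG00000003378) at chr7:25009849-25072346, each on the minus strand. Grik3 (ENSMUSG00000001985) lies at chr4:125490700-125714173 on the plus strand and Grik4 (ENSMUSG00000032017) at chr9:42518135-42944493 on the minus strand. The spans run from 62498 bases in Grik5 to 693934 bases in Grik2, whose coding sequence is only 2724 bases long.

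The library totals lay between 26874015 and 27971488 counts in control mice and between 28582210 and 37448388 in CBP-ifKOs. No nonzero count of a CBP-ifKO library was odd, against between 54.0% and 55.1% of the nonzero counts in control libraries, so the number of reads behind a CBP-ifKO count is uncertain. With these counts halved, the same 4 subunit genes passed the threshold in the averaged genotype comparison as with the deposited counts. Scaling by library total cancels most of such a halving, so this fit could hardly differ. All CBP-ifKO libraries and no control library had only even counts, so a difference in counting cannot be told apart from genotype. Crebbp, the deleted gene, was lower in every CBP-ifKO (44.5 to 51.6 CPM, the count relative to a library total scaled by TMM) than in any control (69.6 to 81.9 CPM), with a log2 fold change of -0.61 ± 0.04 (SE, 6 mice of each genotype, edgeR quasi-likelihood test, adjusted p = 3.38e-07). One control library, Control EE replicate 1, held 1239 CPM of the 4 choroid plexus markers Ttr, Folr1, Kl and Clic6 in sum, against 34.7 to 61.2 CPM in the other mice. Without that library the same 4 subunit genes passed for genotype averaged over housings. Control EE replicate 2 stood high for several subunit genes, as given below. Hippocampal neuron markers were present in all libraries, with summed levels of 249 to 428 CPM for 3 CA1 markers and 286 to 447 CPM for 4 dentate markers, and none of these markers was at 0.

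Per kilobase of exons, Gria1 was the most abundant subunit mRNA in each of the 4 groups, followed by Gria2, Grik5 and Gria3. In SC-housed controls Gria1 reached 198 ± 9.22 CPM per kilobase (SD, n = 3), Gria2 71.5 ± 4.56, Grik5 43.8 ± 2.90 and Gria3 30.2 ± 2.25. Gria4, a subunit prominent in interneurons, followed with 14.6 ± 0.97. The other kainate genes were lower, with 11.6 ± 1.73 for Grik4, 8.33 ± 0.31 for Grik2, 7.01 ± 0.57 for Grik3 and 2.89 ± 0.04 for Grik1. With the deposited lengths, the order of the 9 genes was the same in all 4 groups. Neighbours in that order did not overlap within a group, except Grik2 and Grik3 in SC-housed CBP-ifKOs. The distances depend on the length used, as the deposited length counts the exons of all transcripts. It is 15548 bases for Gria2, whose longest coding transcript has 10371. With the longest coding transcript as length, an alternative chosen after seeing the data, Gria1 and Gria2 reached 221 ± 16.1 and 109 ± 11.8 in the 6 control mice, and Grik2 (11.6 ± 1.05) came level with Grik4 (11.6 ± 1.31). Grik5 (61.4 ± 3.28) and Gria3 (58.5 ± 6.26) were then within 1 SD of each other in controls, and in CBP-ifKOs the mean of Grik2 (10.6 ± 0.57) was above that of Grik4 (9.58 ± 0.85), so the order given above holds for the deposited lengths.

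**Figure D1:**
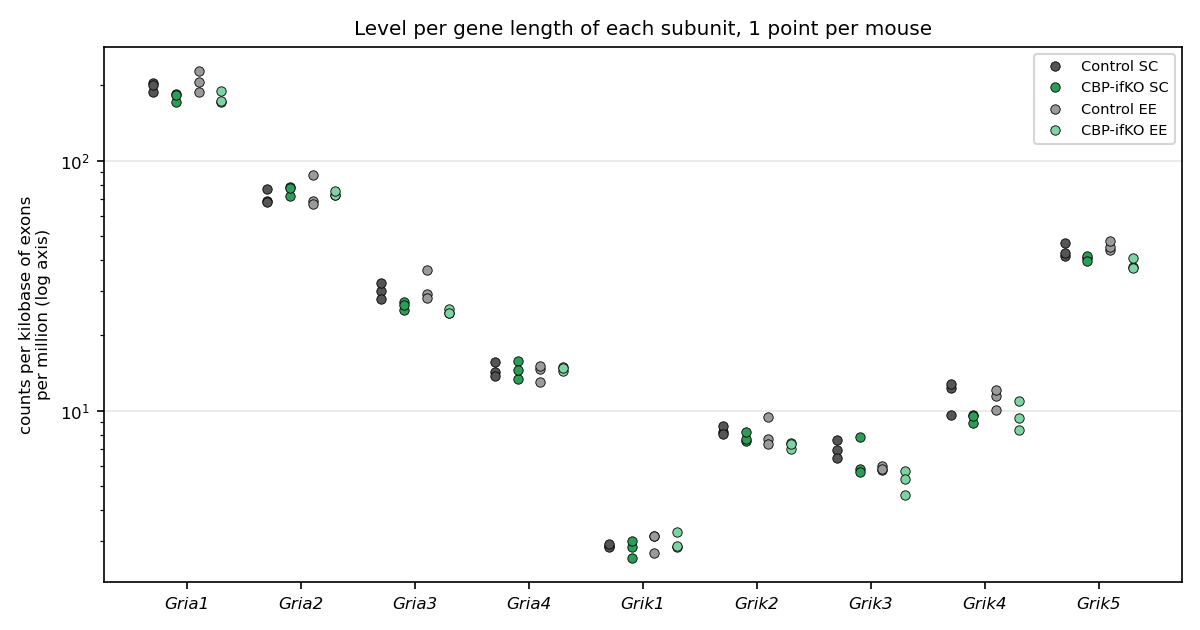
CPM per kilobase of exons (log axis) for the 9 subunit genes, 1 point per mouse, with the 4 groups side by side within each gene. Gria1 lies highest and Grik1 lowest in each group, with the same order of the 9 genes in all 4 groups.

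The first question is whether the loss of CBP changed the subunit mRNAs. Averaged over both housings, Gria1 and Gria3 of the AMPA family and Grik4 and Grik5 of the kainate family were lower in CBP-ifKOs, with changes of mean CPM from -11.4% (Grik5) to -17.1% (Grik4). The remaining 5 genes did not pass the threshold, and none was higher. The 4 called genes compare with 16.9% of the 18251 genes tested in either direction, 10.3% lower and 6.64% higher, in the edgeR quasi-likelihood test with Benjamini-Hochberg adjustment at 0.05. Of the 9 genes, 7 had a log2 fold change below 0, with a median of -0.14 over the 9, against 49.3% of all genes below 0 and a median of 0.00289 over all genes.

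Gria3 had the clearest separation of the genotypes. Its values in the SC-housed controls were 298, 319 and 275 CPM, and in the SC-housed CBP-ifKOs 269, 249 and 262 CPM. In EE they were 290.0, 362 and 279 CPM in controls and 241, 252 and 243 CPM in CBP-ifKOs. All 6 CBP-ifKOs thus lay below all 6 controls, a separation that 5.35% of all genes tested also showed in that direction. The averaged log2 fold change was -0.27 ± 0.06 (SE, 6 mice of each genotype, edgeR, adjusted p = 0.00494). Within each housing the change was -0.19 ± 0.06 in SC (adjusted p = 0.0982, edgeR) and -0.33 ± 0.09 in EE (adjusted p = 0.0573, edgeR). The largest control value, 362 CPM, belongs to Control EE replicate 2. Without it the change in EE was -0.21, with an adjusted p of 0.0456 in edgeR.

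Gria1 had 1134, 1241 and 1215 CPM in the SC-housed controls and 1034, 1119 and 1109 CPM in the SC-housed CBP-ifKOs. In EE the controls had 1135, 1376 and 1244 CPM and the CBP-ifKOs 1040, 1145 and 1046 CPM. The genotypes touched, since 5 of 6 CBP-ifKOs lay below the lowest control and the sixth, at 1145 CPM, lay above 2 of the controls. The averaged log2 fold change was -0.18 ± 0.05 (SE, edgeR, adjusted p = 0.0150), and the mean CPM changed by -11.6%. Gria1 mRNA is abundant in CA1, and CA1 markers were lower as well. The summed level of the 3 CA1 markers was 362 to 428 CPM in controls and 249 to 283 CPM in CBP-ifKOs, and 2 of the 3 (Fibcd1 and Wfs1) passed the threshold as lower, with a median log2 fold change of -0.51. The other, Pou3f1, did not pass (-0.18 ± 0.09, adjusted p = 0.213, edgeR). Of the 4 markers of excitatory neurons as a class, 1 (Neurod6) was lower, and their summed levels overlapped, with 5478 to 6001 CPM in controls and 5129 to 5878 CPM in CBP-ifKOs. Some markers of other cell types passed the threshold for genotype as well. All marker counts given here stand against 10.3% of all genes tested called lower and 6.64% called higher. Lower calls were made for 2 of 2 markers of oligodendrocyte precursors, 2 of 5 of astrocytes (3891 to 4580 CPM in sum in controls and 3520 to 3978 CPM in CBP-ifKOs) and 2 of 4 of microglia (211 to 228 and 191 to 221 CPM). None of the 4 oligodendrocyte and 3 endothelial markers passed, and of 8 interneuron markers Sst was lower and Vip higher (946 to 1040 and 881 to 948 CPM in sum). Of 3 thalamic markers, which would come from tissue beside the hippocampus, Slc17a6 was higher (0.47 ± 0.14) and Prkcd lower (-0.36 ± 0.11), with overlapping sums of 42.0 to 60.9 and 47.2 to 63.1 CPM. Of the 4 choroid plexus markers Ttr was lower, also in SC (-1.70 ± 0.12), where the sum of the 4 was 46.5 to 52.8 CPM in controls and 35.0 to 38.3 CPM in CBP-ifKOs. The part of all these markers in the changes of the subunit genes was not tested.

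Gria2 did not pass the threshold. It had 1078, 1193 and 1065 CPM in SC-housed controls and 1127, 1222 and 1214 CPM in SC-housed CBP-ifKOs. In EE it had 1072, 1361 and 1041 CPM in controls and 1132, 1138 and 1180 CPM in CBP-ifKOs. The groups overlapped in both housings, and the averaged log2 fold change was 0.04 ± 0.06 (SE, edgeR, adjusted p = 0.673). It was 0.11 without Control EE replicate 2 (adjusted p = 0.0619, edgeR) and 0.0065 without Control EE replicate 3, the ends of its range over the alternatives. Gria4 ranged from 81.9 to 98.6 CPM in controls and from 84.3 to 99.8 CPM in CBP-ifKOs, with a change of 0.03 ± 0.05 (SE, edgeR, adjusted p = 0.786). Whether the change of Gria2 differs from that of Gria1 or Gria3 was not tested.

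**Figure D2:**
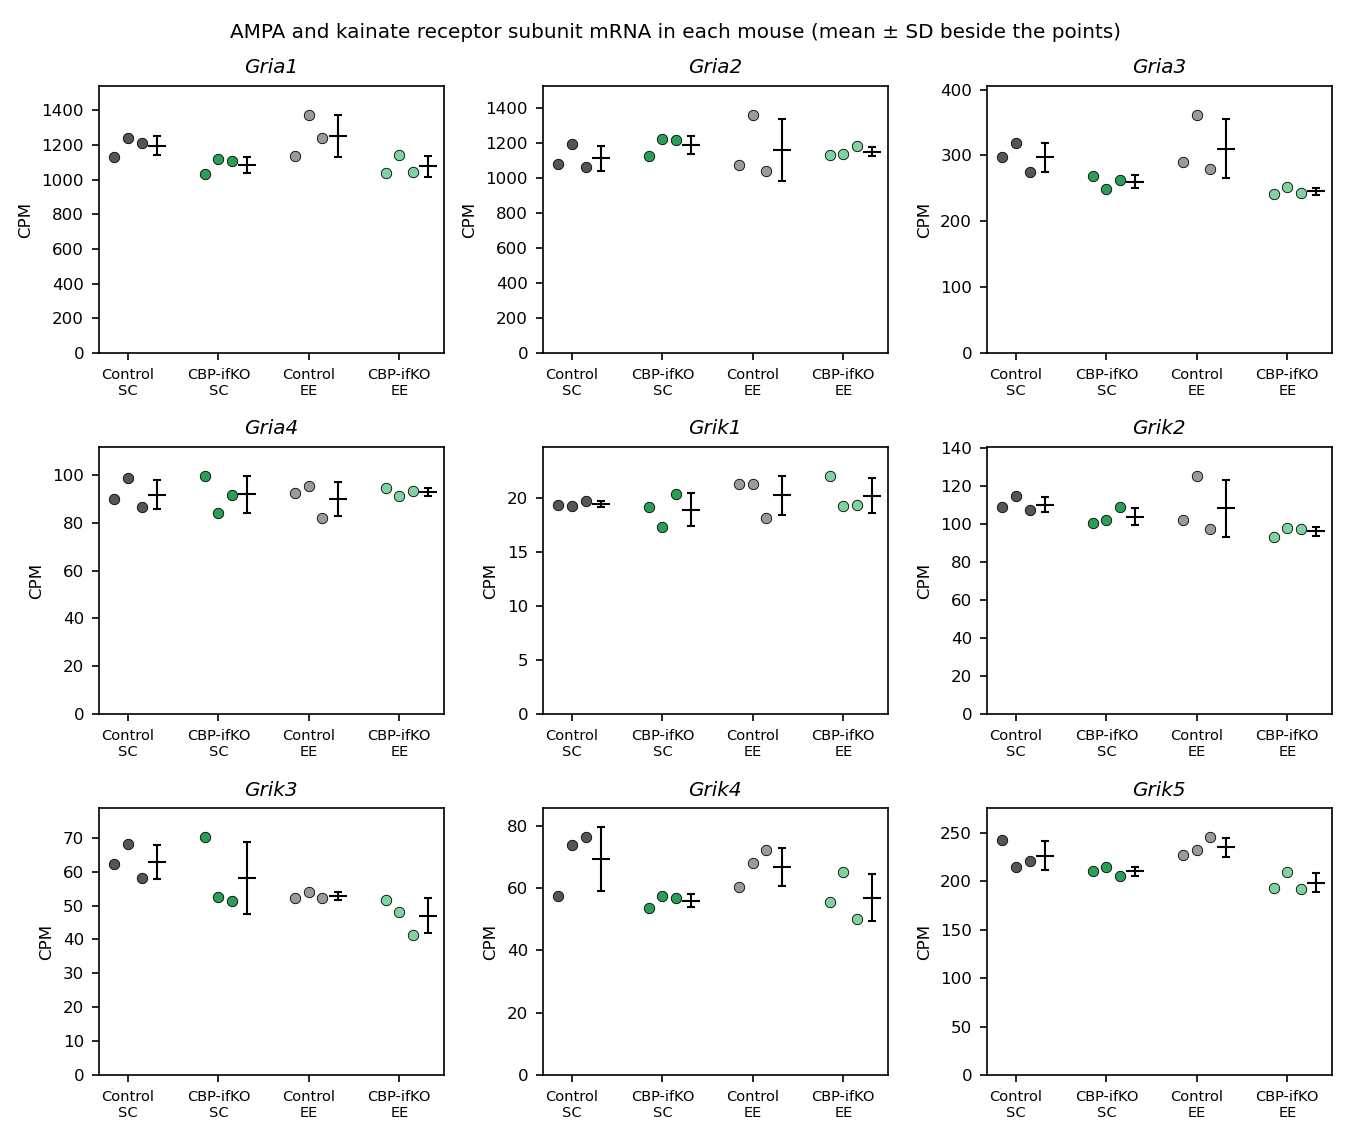
TMM-scaled CPM of each subunit gene in each of the 12 mice, by group, with the mean ± SD (n = 3) beside the points. The 6 CBP-ifKOs lie below the 6 controls for Gria3, between 241 and 269 against 275 and 362 CPM, whereas the genotypes overlap for the other 8 genes.

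The makeup of the AMPA pool, as each gene's percentage of the summed level per kilobase of the 4 Gria genes, is a description without a test. Gria1 made up 63.2% ± 1.5 (SD, n = 6) of the pool in controls and 60.8% ± 1.04 in CBP-ifKOs. Gria2 made up 22.7% ± 0.91 in controls and 25.5% ± 0.74 in CBP-ifKOs, and here the ranges did not overlap (21.3% to 23.8% against 24.2% to 26.3%). Gria3 made up 9.60% ± 0.48 and 8.71% ± 0.43, and Gria4 4.51% ± 0.33 and 4.99% ± 0.40. With the longest coding transcript as length, the Gria2 percentages were 27.0% ± 0.92 in controls and 30.2% ± 0.82 in CBP-ifKOs, again without overlap. In counts not divided by length Gria2 made up 41.2% ± 1.16 of the pool in controls and 45.01% ± 0.96 in CBP-ifKOs (39.4% to 42.6% against 43.3% to 46.0%), and Gria1 44.5% ± 1.59 and 41.7% ± 1.02. The order of Gria1 and Gria2 in CBP-ifKOs thus depended on the division by length. A gene's percentage also depends on the other genes of the pool. The Gria2 level itself did not pass for genotype (log2 fold change 0.04 ± 0.06, SE), whereas Gria1 and Gria3 were lower. How often percentages in other gene families separate in this way was not tested. The summed AMPA level per kilobase was 314 ± 14.6 in SC-housed controls, 297 ± 9.08 in SC-housed CBP-ifKOs, 327 ± 35.0 in EE-housed controls and 292 ± 9.62 in EE-housed CBP-ifKOs (SD, n = 3).

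**Figure D3:**
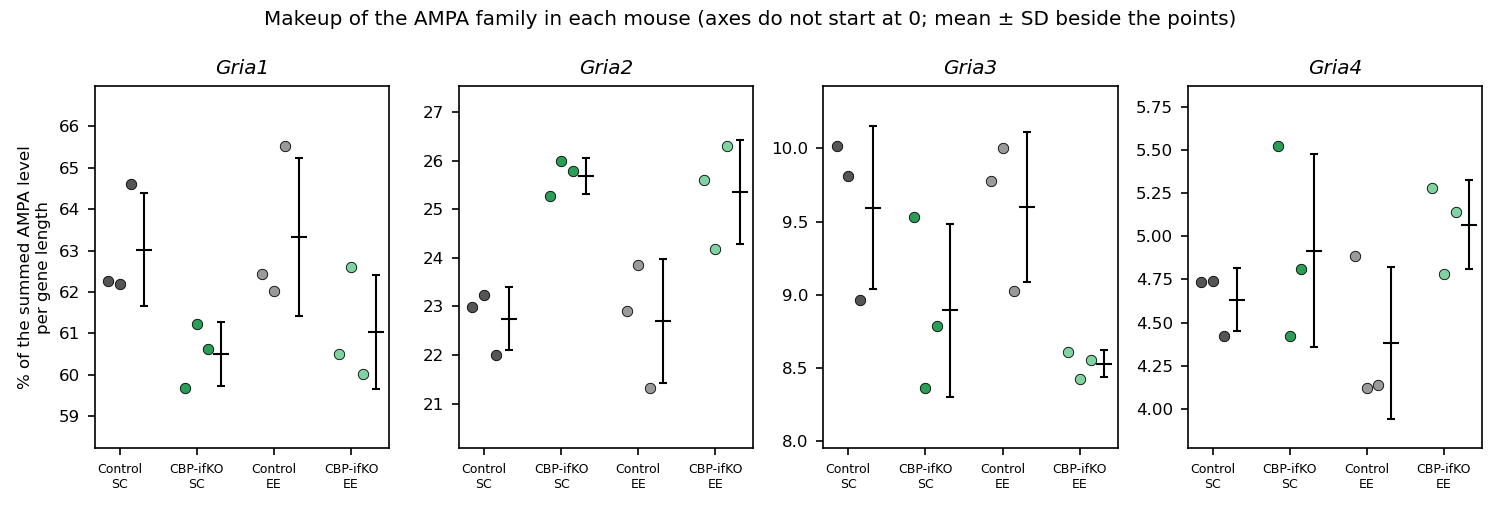
Percentage of the summed AMPA level per gene length taken by each Gria gene, 1 point per mouse, with the mean ± SD (n = 3) beside the points. The axes do not start at 0, and the 6 CBP-ifKOs lie above the 6 controls for Gria2 (24.2% to 26.3% against 21.3% to 23.8%).

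In the kainate family both high-affinity subunits were lower. Grik5, the most abundant kainate gene, had 243, 214.5 and 221 CPM in SC-housed controls and 211, 215.0 and 205 CPM in SC-housed CBP-ifKOs. In EE it had 227, 233 and 246 CPM in controls and 194, 210 and 193 CPM in CBP-ifKOs. The groups did not overlap in EE, as for 13.6% of all genes in that direction, whereas in SC the highest CBP-ifKO lay just above the lowest control. The averaged log2 fold change was -0.17 ± 0.04 (SE, edgeR, adjusted p = 0.00827). Within a housing the changes were -0.11 ± 0.06 in SC (adjusted p = 0.332, edgeR) and -0.24 ± 0.06 in EE (adjusted p = 0.0587, edgeR). In SC the change was -0.05 without Control SC replicate 1.

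Grik4 had 57.4, 73.8 and 76.5 CPM in SC-housed controls and 53.4, 57.3 and 56.9 CPM in SC-housed CBP-ifKOs. In EE it had 60.2, 68.1 and 72.2 CPM in controls and 55.6, 65.0 and 50.0 CPM in CBP-ifKOs. In SC the highest CBP-ifKO (57.3 CPM) lay just below the lowest control (57.4 CPM), a separation in that direction that 13.5% of all genes showed, and in EE the genotypes overlapped. The averaged log2 fold change was -0.27 ± 0.08 (SE, edgeR, adjusted p = 0.0211). This call rested on single mice, as the adjusted p in edgeR was 0.0657 without Control SC replicate 3, 0.0554 without CBP-ifKO SC replicate 1, 0.0593 without Control EE replicate 3 and 0.0590 without CBP-ifKO EE replicate 3. The change stayed between -0.26 and -0.23 in these 4 fits. Grik4 mRNA is typical of CA3 and dentate cells. Of 3 CA3 markers 1 (Iyd) was lower, with summed levels of 90.6 to 110.0 CPM in controls and 85.5 to 104 CPM in CBP-ifKOs. Of 4 dentate markers 2 (Dsp and Stxbp6) were lower, with 350 to 447 and 286 to 378 CPM. Both marker counts stand against 10.3% of all genes tested called lower. The part of these markers in the change was not tested.

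The kainate subunits that form channels by themselves did not pass the threshold for genotype. Whether their changes differ from those of Grik4 or Grik5 was not tested. Grik2 ranged from 97.7 to 126 CPM in controls and from 93.4 to 109 CPM in CBP-ifKOs, with an averaged log2 fold change of -0.13 ± 0.05 (SE, edgeR, adjusted p = 0.125) and of -0.07 without Control EE replicate 2. Grik3 changed by -0.14 ± 0.08 (SE, edgeR, adjusted p = 0.231), and CBP-ifKO SC replicate 1, at 70.4 CPM, was its highest value of all mice. Without that mouse the change of Grik3 was -0.22, with an adjusted p of 0.0230 in edgeR. Grik1, at 17.3 to 22.1 CPM the least abundant member, changed by -0.02 ± 0.06 (SE, edgeR, adjusted p = 0.882). As a share of the summed kainate level, Grik5 made up 60.6% ± 2.55 in controls and 60.6% ± 0.91 in CBP-ifKOs (SD, n = 6), and Grik4 15.5% ± 1.73 and 14.5% ± 1.03. The summed kainate level per kilobase was 73.6 ± 0.94 and 67.2 ± 0.93 in SC and 73.8 ± 2.68 and 63.5 ± 3.39 in EE, for controls and CBP-ifKOs.

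Within a single housing, with 3 mice against 3, none of the 9 genes passed the threshold. In SC 968 of 17532 genes passed (5.52%) and in EE 805 of 17625 (4.57%). At an unadjusted p below 0.05, 3 of the 9 subunit genes were counted in SC and 4 in EE, against 20.5% and 19.6% of all genes tested. The lowest adjusted p was 0.0799 in SC, for Grik4 with -0.31 ± 0.09, and 0.0573 in EE, for Gria3 (edgeR). In DESeq2 Gria3 and Grik4 passed in SC and Gria1, Gria3 and Grik5 in EE, against 7.42% and 7.35% of all genes. In edgeR without a filter on low counts Gria3 and Grik4 passed in SC and Gria1, Gria3, Grik4 and Grik5 in EE, against 4.67% and 5.14%. With the replicate number as a block Grik4 passed in SC (adjusted p = 0.0300, edgeR) and Gria3 in EE (adjusted p = 0.0205, edgeR), against 5.94% and 6.18%. In EE Gria3 and Grik5 also passed in edgeR with all 12 mice in the fit (7.08% of all genes), and Grik5 with a filter of 1 CPM in 3 mice (5.85%). Some fits with a mouse left out gave calls as well, for Grik4 in SC without Control SC replicate 1 (-0.42, adjusted p = 0.00442), for Gria3 in EE without Control EE replicate 1 (-0.38, adjusted p = 0.0397) or replicate 2, and for Grik5 in EE without Control EE replicate 2 (-0.25, adjusted p = 0.0486). These 3 fits called 3.54%, 3.83% and 5.54% of all genes. The calls within a housing thus depended on the tool, the filter, the block and the mice in the fit. An exact two-sided permutation test with 3 mice against 3 cannot give a p below 0.1.

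**Figure D4:**
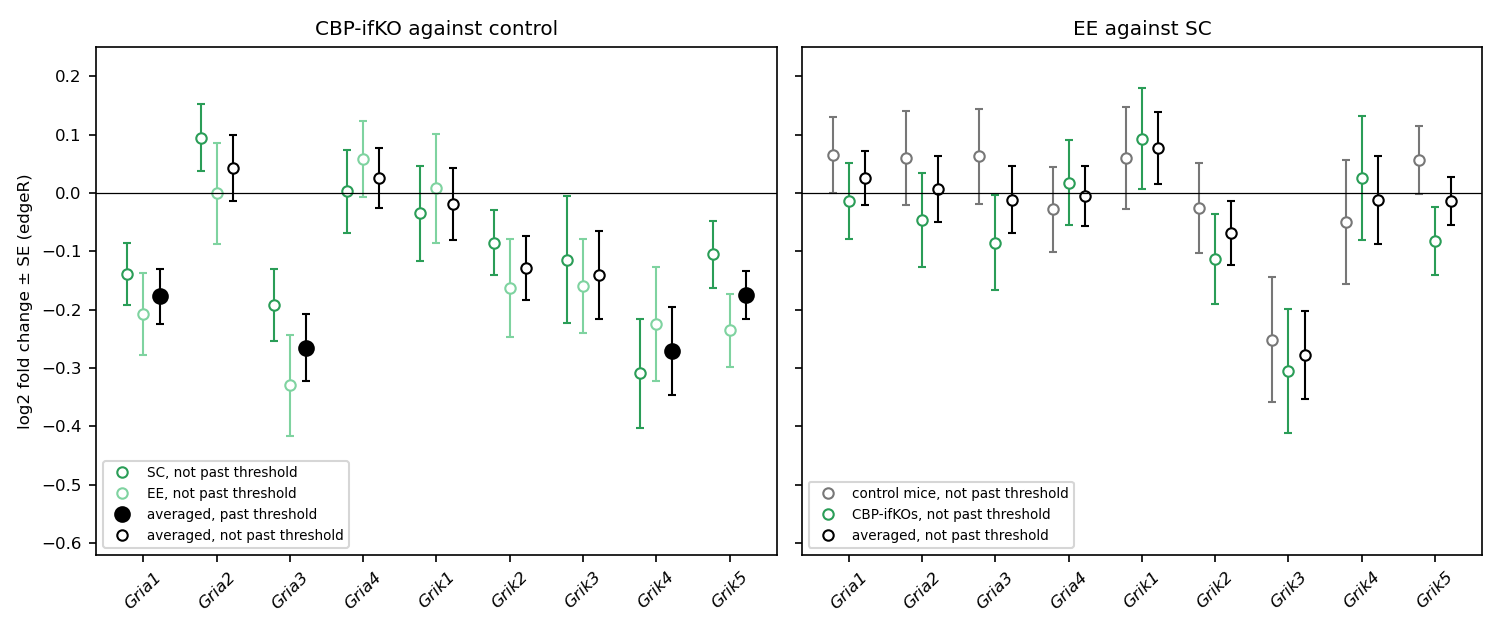
Log2 fold change ± SE (edgeR) of the 9 genes for CBP-ifKO against control (left) and EE against SC (right), with filled points past the adjusted threshold. Gria1, Gria3, Grik4 and Grik5 are filled only in the comparison averaged over housings, at -0.18, -0.27, -0.27 and -0.17, and Grik3 has the lowest values on the right.

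The second question is whether EE changed the subunit mRNAs. With the filter on low counts, none of the 9 genes passed the threshold in edgeR in either genotype or on average. These comparisons called 0 of 18251 genes in control mice (0%), 2 in CBP-ifKOs (0.011%) and 30 on average (0.164%). In DESeq2 the number called in control mice was 15. Of the 18251 genes, 768 were at an unadjusted p below 0.05 in control mice, 1567 in CBP-ifKOs and 1723 on average (edgeR). Grik3 was the only subunit gene at an unadjusted p below 0.05 in any housing comparison. It had 62.4, 68.3 and 58.1 CPM in SC-housed controls and 52.2, 54.0 and 52.3 CPM in EE-housed controls, so that these 2 groups did not overlap, as for 4.91% of all genes in that direction. In CBP-ifKOs it had 70.4, 52.7 and 51.3 CPM in SC and 51.6, 48.0 and 41.4 CPM in EE, with overlap. The averaged log2 change was -0.28 ± 0.08 (SE, edgeR, unadjusted p = 0.00212, adjusted p = 0.207). In DESeq2 the adjusted p of Grik3 was 0.0384, and 158 genes passed in place of 30. In edgeR without a filter on low counts Grik3 passed on average (adjusted p = 2.71e-05) and in CBP-ifKOs (adjusted p = 0.00619), among 334 and 247 of 35081 genes. The other 8 genes changed by between -0.07 and 0.08 on average.

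For Gria1, Gria2 and Gria3, the direction of the small housing change in control mice turned with 1 library. Control EE replicate 2 had the highest level of all 12 mice for Gria1 (1376 CPM), Gria2 (1361 CPM), Gria3 (362 CPM) and Grik2 (126 CPM). With it, the log2 changes in controls were 0.06 for Gria1, 0.06 for Gria2 and 0.06 for Gria3, and without it -0.0086, -0.07 and -0.06. Its library total, 26874015 counts, was the lowest of the 12 as deposited. With the CBP-ifKO counts halved, the totals of those libraries were lower, between 14291105 and 18724194. The change in controls also turned for Gria4 (-0.03, and 0.04 without it) and Grik2 (-0.03, and 0.04 without it) with Control EE replicate 3, and for Grik4 (-0.05, and 0.03 without it) with Control SC replicate 3. The library named is the one whose removal turned the change furthest among single mice. Over 20 alternatives the sign was kept in 18 for Gria4 and in 17 for Grik2.

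The genotype changes were not shown to differ between the housings. In the interaction test 0 of 18251 genes passed in edgeR (0%), with 574 at an unadjusted p below 0.05, none of which was a subunit gene, and 0 in DESeq2. The interaction of the 9 genes ranged from -0.15 to 0.08 on the log2 scale, with an SE of 0.12 for Gria3 (-0.15) and 0.08 for Grik5 (-0.14). Without Control EE replicate 2 the interaction of Gria3 was -0.02, and over all alternatives it ranged from -0.22 to -0.02.

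Receptor subunits reach the synapse with auxiliary proteins and scaffolds, and several of these had larger fold changes than the subunits. Of 19 genes for AMPA auxiliary subunits and trafficking factors, 9 were lower and 1 was higher in CBP-ifKOs averaged over housings, against the 10.3% and 6.64% of all genes given above. The lower genes were Cacng3, Cacng4 and Cacng8 of the TARP family, Cnih2, Gsg1l, Shisa7, Prrt1, Syndig1 and Abhd6. Prrt1 (also called SynDIG4) had 213 ± 15.9 and 202 ± 21.5 CPM in controls in SC and EE and 159 ± 1.67 and 147 ± 2.96 CPM in CBP-ifKOs (SD, n = 3), with a log2 change of -0.44 ± 0.05 (SE, edgeR, adjusted p = 2.66e-05). Cnih2, a cornichon that slows the closing of AMPA receptors, changed by -0.42 ± 0.06, and Gsg1l, which dampens AMPA receptor currents, by -0.54 ± 0.11. Abhd6, known to restrain surface delivery of AMPA receptors, changed by -0.30 ± 0.05. Cacng2 (stargazin) changed by -0.04 ± 0.05 and did not pass. Cpt1c was the gene that was higher, by 0.15 ± 0.05. The calls of Cacng3, Cacng8, Syndig1 and Cpt1c depended on the processing and passed in 10, 8, 10 and 10 of the 19 alternatives, whereas the other 6 passed in all 19.

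C1ql2 had the largest change of the related genes. This protein, secreted at mossy fiber synapses, recruits kainate receptors there. It ranged from 56.2 to 76.7 CPM in the 6 controls and from 14.7 to 25.6 CPM in the 6 CBP-ifKOs, a log2 change of -1.76 ± 0.10 (SE, edgeR, adjusted p = 4.36e-08). The other genes of that list did not pass, with -0.14 ± 0.06 for Neto1, 0.0092 ± 0.05 for Neto2 and -0.04 ± 0.07 for C1ql3. Of 3 pentraxins, secreted proteins that cluster AMPA receptors, 2 were lower, and both this count and the 1 of 4 of the C1ql2 list stand against 10.3% of all genes tested. Nptx2 ranged from 15.3 to 29.3 CPM in controls and from 7.82 to 15.9 CPM in CBP-ifKOs, with a change of -1.02 ± 0.09, and Nptxr changed by -0.23 ± 0.04. Nptx2 was also the only related gene described here that passed in a housing comparison, with 0.69 ± 0.09 for EE against SC averaged over genotypes (SE, edgeR, adjusted p = 0.00555). Its means were 16.9 ± 2.49 CPM in SC and 27.4 ± 2.07 CPM in EE in controls, and 8.37 ± 0.48 and 13.4 ± 2.33 CPM in CBP-ifKOs (SD, n = 3). Within a genotype the housing change of Nptx2 did not pass, with 0.70 ± 0.12 in controls (adjusted p = 0.1497, edgeR) and 0.68 ± 0.13 in CBP-ifKOs (adjusted p = 0.121, edgeR).

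Of 9 scaffold and trafficking genes 4 were lower, and the counts of this list and of the NMDA list stand against the same 10.3%. Dlg4, which encodes the scaffold PSD-95, changed by -0.35 ± 0.03, Nsf, which binds the tail of the Gria2 product, by -0.29 ± 0.03, Grip1 by -0.20 ± 0.05 and Epb41l1 by -0.19 ± 0.04. Grip1 lost its call without Control SC replicate 3. The 3 editing enzymes did not pass, with -0.12 ± 0.05 for Adarb1, the enzyme of the Q/R site (adjusted p = 0.123, edgeR). Grid1, a delta receptor relative, was lower, by -0.30 ± 0.05. In the NMDA receptor family, the other large family of glutamate channels, 3 of 6 tested genes of 7 listed were lower, with Grin2a at -0.33 ± 0.04, Grin2b at -0.31 ± 0.07 and Grin2c at -0.24 ± 0.06. Grin1, the subunit that all NMDA receptors need, changed by -0.05 ± 0.05. Within a single housing, Cnih2, Prrt1, C1ql2, Nptx2, Nsf, Dlg4 and Grin2a passed as lower in both SC and EE. Of all genes tested, 4.02% passed as lower in SC and 3.53% in EE. Of 14 alternatives in each housing, Cnih2 passed in 11 in both, Nsf in 12 in SC and Grin2a in 10 in EE. The remaining calls of these genes held in all 14.

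**Figure D5:**
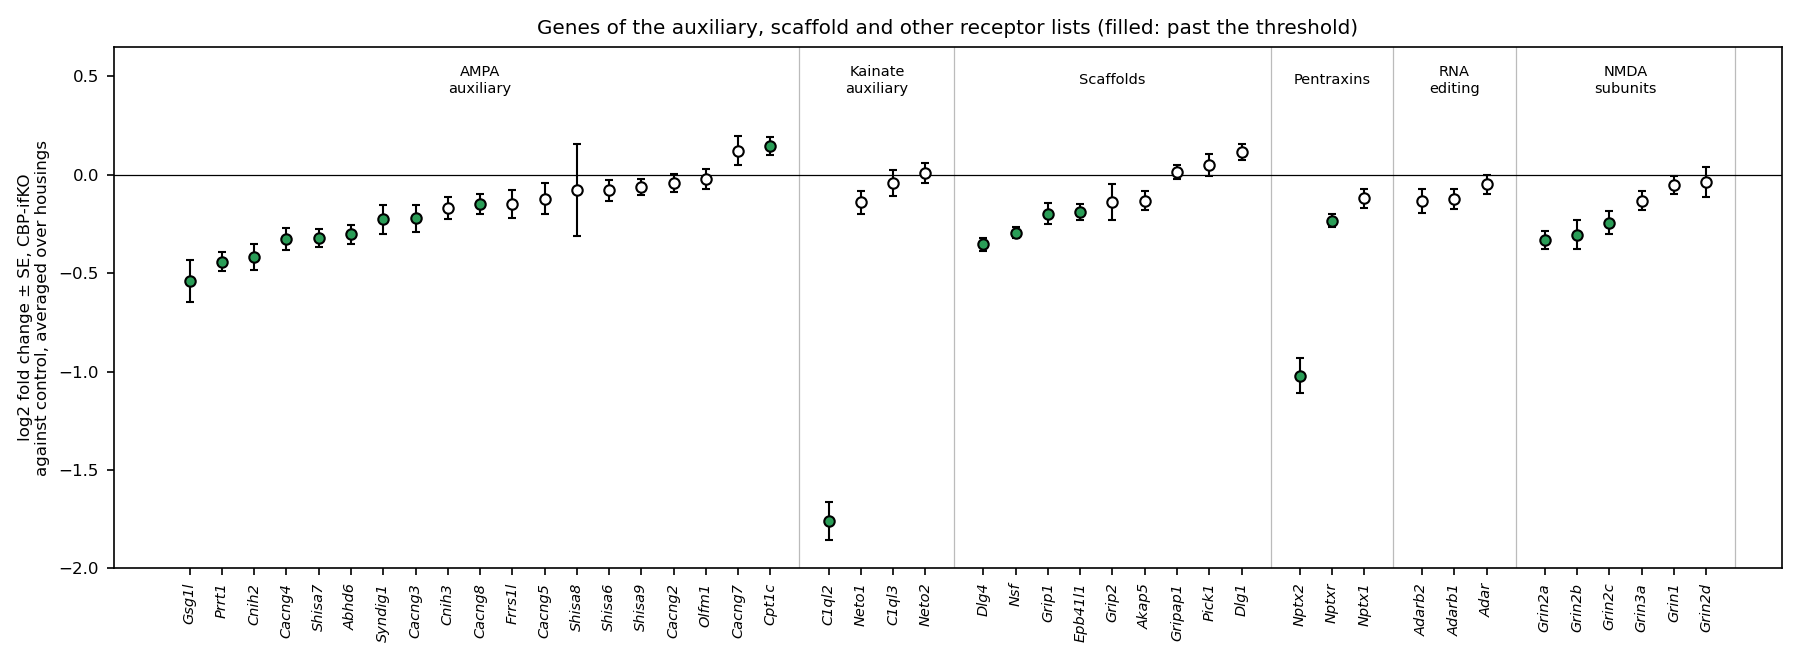
Log2 fold change ± SE (edgeR) of CBP-ifKO against control averaged over housings for the genes of 6 related lists, with filled points past the adjusted threshold. C1ql2 (-1.76) and Nptx2 (-1.02) lie far below the rest, and Cpt1c (0.15) is the only filled point above 0.

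The genes whose profile over the 12 mice lay nearest to that of a subunit were found by the root mean square difference of mean-centred log2 CPM. For Gria3, the AMPA gene with the smallest p for genotype, they were Fam49a (0.047), Rragd (0.049) and Dlgap1 (0.054), against a median of 0.234 over all genes. For Grik5, chosen likewise in the kainate family, they were Dnm1 (0.034), Slc12a5 (0.036) and Fbxo31 (0.036), against a median of 0.194. Dnm1 encodes dynamin 1 of synaptic vesicle recycling, Slc12a5 encodes the neuronal chloride extruder KCC2, and Dlgap1 encodes a scaffold of the postsynaptic density. All 6 were lower in CBP-ifKOs, by between -0.27 and -0.14 on the log2 scale, a direction that the choice of profile fixes.

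The RefSeq promoter set of GRCm38.p6 held 6 of the 9 genes. The cAMP response element (CRE), which binds CREB, a factor that recruits CBP, was searched in the 250 bases before the start on both strands, as the full palindrome TGACGTCA and as its core TGACG, which the full element contains. Neither was found in Gria2, Gria4, Grik2, Grik3, Grik4 or Grik5. Among all 32851 promoters of this length, 1.55% held the full element and 17.8% the core. The upstream sequences of the 2 called genes with an entry are shown because both were lower in CBP-ifKOs, and no base is in capitals as no core was found. They run 5′ to 3′ along the minus strand, at chr7:25072370-25072619 for Grik5 and, for the stretch before the GENCODE start, at chr9:42944494-42944621 for Grik4.
Grik5: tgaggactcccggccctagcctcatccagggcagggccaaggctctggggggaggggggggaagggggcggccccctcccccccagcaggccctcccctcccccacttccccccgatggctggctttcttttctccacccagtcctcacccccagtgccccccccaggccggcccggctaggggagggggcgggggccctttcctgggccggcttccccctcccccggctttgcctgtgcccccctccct
Grik4: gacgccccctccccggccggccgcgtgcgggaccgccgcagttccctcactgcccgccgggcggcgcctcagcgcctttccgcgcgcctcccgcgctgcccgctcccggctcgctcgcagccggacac
Over the full 250 bases both were rich in G and C (75.2% in Grik5 and 69.6% in Grik4), but Grik5 had 8 CpG dinucleotides and Grik4 had 36.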

How the data were processed

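Per the labels and the methods of the study, 50-base single-end reads were trimmed with Trim Galore 0.6.4, aligned with STAR 2.6.1 to mm10 (GRCm38), kept above a mapping quality of 10 and assigned to Ensembl exons by Rsubread. Whether counting used strand is not given in the sources used here. The deposited table holds the authors' unnormalized counts for each gene, 1 column per mouse for 24 GEO samples (12 mice in 2 runs each). It also gives the length of each gene in bases, an annotation value. Of its 55471 genes 55144 matched a symbol.

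Counts were tested with edgeR 4.0.16 in R 4.3.3 (expression filter, TMM, quasi-likelihood F test, Benjamini-Hochberg adjustment at 0.05, no fold threshold). Genotypes were compared within a housing in 6 mice, and the other 5 comparisons were contrasts of a fit of all 12. The SE is the absolute log2 fold change divided by the square root of F. Log2 CPM used a prior count of 2. The procedure was tested on simulated data. A count of 3 corresponded to between 0.0801 and 0.112 CPM, which covers counting error only.

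The alternatives were DESeq2 1.42.0, its size factors, no filter or 1 CPM in 3 mice, halved CBP-ifKO counts, counts thinned to the smallest library, the replicate number as a block, other mice in the fit, a log2 threshold of 0.5 for housing, undivided counts for the shares, a prior count of 0.5 for the levels and leaving out each mouse. The length of the longest coding transcript was added after the data were seen.

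The members and gene lists were chosen with earlier results of these data known. The text names all 9 members, Crebbp, the related genes past the threshold in any comparison, and the 3 nearest profiles for the member of each family with the smallest p for genotype; marker genes and related genes that did not pass were named after their values were seen. Replicates are separate mice. Gene positions, transcripts and coding sequences came from GENCODE vM21, with identities from Biopython 1.88 (BLOSUM62); RefSeq proteins were not used here.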

Additional observations from a re-analysis of the deposited data

How the results depend on the processing

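In the genotype comparison averaged over housings, Gria1, Gria3 and Grik5 kept their direction and their call in all 19 alternatives, and Grik4 kept its direction in all 19 and its call in 15. Their log2 changes ranged from -0.21 to -0.14 (Gria1), -0.30 to -0.20 (Gria3), -0.20 to -0.15 (Grik5) and -0.33 to -0.23 (Grik4). Without a filter on low counts Grik2 (adjusted p = 0.0356) and Grik3 (0.0311) also passed in edgeR, among 3365 of 35081 genes. Over the 9 genes and 7 comparisons, 1026 of the recomputed changes kept direction and side of the threshold, 26 passed newly, 4 no longer passed and 69 changed sign.

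The number of genes past the threshold varied more. For genotype in SC it was 1512 without a filter and 399 (without CBP-ifKO SC replicate 2) to 1908 (without Control SC replicate 2) with a mouse left out. For genotype in EE it was 1296 in DESeq2, 1677 without a filter, 1293 with all 12 mice in the fit and 285 (without Control EE replicate 3) to 1016 (without Control EE replicate 2) with a mouse left out. For housing in control mice it was 15 in DESeq2, 145 without a filter, 1 with the 6 control mice alone and 0 to 5 with a mouse left out. For housing in CBP-ifKOs it was 54 in DESeq2, 247 without a filter, 0 with halved counts, 21 with the 6 CBP-ifKOs alone and 0 to 10 with a mouse left out. For housing on average it was 158 in DESeq2, 334 without a filter, 6 with a log2 change above 0.5 and 7 (without CBP-ifKO EE replicate 3) to 42 (without CBP-ifKO EE replicate 1) with a mouse left out. The interaction gave 110 without a filter. The cause was not tested.

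With the replicate number as a block, 1041 genes passed for genotype in SC, 1089 in EE and 3374 on average, 17 genes passed for housing in CBP-ifKOs and 48 on average, the Gria2 change in EE was 0.0089, Grik4 passed in SC (adjusted p = 0.0300, edgeR) and Gria3 in EE (0.0205). The correlation of same-numbered mice across genes was between -0.0675 and 0.305 over the 6 pairs of groups. In 1 of these pairs, Control EE and CBP-ifKO EE, every mouse correlated best with its own number. Whether a shared number also marks a shared batch or litter was not tested.

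No sign change concerned a change past the threshold, and the furthest from 0 among those that turned was the Gria2 interaction (-0.11). In SC the Gria4 change was -0.0088 without a filter and -0.0072 with thinned counts, and in EE the Grik1 change was -0.012 without a filter, -0.0040 with thinned counts and -0.0019 with all 12 mice. With a mouse left out, the genotype changes ranged from -0.059 to 0.062 (Gria4) and -0.091 to 0.025 (Grik1) in SC, from -0.069 to 0.13 (Gria2), -0.0026 to 0.098 (Gria4) and -0.063 to 0.044 (Grik1) in EE, and from -0.0060 to 0.055 (Gria4) and -0.055 to 0.011 (Grik1) on average. The housing changes in control mice ranged from -0.0086 to 0.13 (Gria1), -0.073 to 0.13 (Gria2), -0.062 to 0.13 (Gria3), -0.072 to 0.035 (Gria4), -0.14 to 0.044 (Grik2) and -0.17 to 0.031 (Grik4). In CBP-ifKOs they ranged from -0.059 to 0.012 (Gria1), -0.039 to 0.081 (Gria4) and -0.081 to 0.11 (Grik4), and on average from -0.011 to 0.059 (Gria1), -0.059 to 0.043 (Gria2), -0.073 to 0.025 (Gria3), -0.034 to 0.027 (Gria4), -0.071 to 0.030 (Grik4) and -0.034 to 0.015 (Grik5). The interaction ranged from -0.18 to 0.028 (Gria2), -0.017 to 0.11 (Gria4), -0.038 to 0.089 (Grik1), -0.16 to 0.033 (Grik2), -0.14 to 0.11 (Grik3) and -0.031 to 0.19 (Grik4).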
